A study of Homo sapiens with 12 samples.

Results

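A set of surface proteins of B cells and plasma cells that antibodies, antibody-drug conjugates or engineered T cells are directed against was followed at the RNA level in 2 lymphoma cell lines given chidamide. They are encoded by MS4A1 (CD20), CD22, CD37, CD38, CD52, SLAMF7, CD70, TNFRSF17 (BCMA) and TNFRSF13C (the BAFF receptor). These 9 genes were taken by symbol from a count table of 26364 genes, and all 9 were found. All 9 also passed the filter on low counts, which left 15087 genes for testing, and each of them had counts in every one of the 12 libraries.

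The design had 4 groups of 3 libraries of polyadenylated RNA from the lines labelled JeKo-1 and Granta-519, each given 4 µM chidamide or vehicle for 12 h. Chidamide inhibits histone deacetylases, the enzymes that remove acetyl groups from histones. Both names belong to established lines of mantle cell lymphoma, a B-cell cancer usually driven by a translocated CCND1, and a line comes from a single tumour. The labels do not say what the vehicle was, or whether the replicates were separate cultures, so the spread behind each test may be technical alone. Library totals ran from 12873642 to 16592694 counts.

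The identity of the lines was checked first. SOX11, a hallmark gene of mantle cell lymphoma, was at 156 ± 7.52 CPM in Granta-519 vehicle (SD, n = 3) and at 0 counts under the JeKo-1 label. CPM is the count scaled to a fixed library size after TMM normalisation. CCND1 was at 2113 ± 42.9 CPM in Granta-519 vehicle, while the vehicle group labelled JeKo-1 had 5 counts in all. JeKo-1 cells are known to express both genes, and for this reason that line is called only by its label. CD5, the remaining mantle cell marker on the list, was scarce in vehicle in both lines. It was at 1.06 ± 0.126 CPM in Granta-519 vehicle and had 6 counts in all in the vehicle group labelled JeKo-1. All 8 B-cell markers, among them CD79A, CD79B, PAX5, BLK and CD74, were present in every group, with a summed level of 6680 to 9670 CPM over the 12 libraries. Most of that sum was CD74, with group means of 5412 and 6880 CPM under the JeKo-1 label and 4685 and 7491 CPM in Granta-519, vehicle first. The 10 T-cell and natural killer markers summed to 0.586 to 8.09 CPM, and the T-cell gene CD2 was at 0 in 3 groups with 1 count in the other. The 3 of these markers that passed the filter on low counts had more. Vehicle first, CD3E had 4 and 68 counts under the JeKo-1 label and 0 and 13 in Granta-519. NKG7 had 132 and 217 counts, and 22 and 35. CD8A had 0 counts in both groups with the JeKo-1 label, and 9 and 69 in Granta-519.

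CD20, CD37 and CD52 sit in the membrane without being classical signalling receptors: CD20 is a membrane-spanning protein of the MS4A family, CD37 a tetraspanin that organises membrane domains, and CD52 a short glycopeptide held by a glycosylphosphatidylinositol (GPI) anchor. CD22 binds sialic acid and dampens the B-cell receptor, and CD38 is an ectoenzyme that consumes NAD. SLAMF7 is a homophilic receptor typical of plasma cells. The remaining proteins belong to the TNF family: CD70 is the ligand of CD27, and TNFRSF17 and TNFRSF13C are receptors for the B-cell survival factors APRIL and BAFF.

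Because the drug acts on chromatin, the sequence just before the start of the genes is shown where the promoter table from RefSeq (GRCh38.p14) held them. It matched 3 of the 9 by symbol: CD22 and CD38, which each rose in both lines by different amounts, and CD52, which was not called in either. The 250 bases before the start are given 5′ to 3′ on the strand of the gene, with capitals marking the single motif match found.
CD22: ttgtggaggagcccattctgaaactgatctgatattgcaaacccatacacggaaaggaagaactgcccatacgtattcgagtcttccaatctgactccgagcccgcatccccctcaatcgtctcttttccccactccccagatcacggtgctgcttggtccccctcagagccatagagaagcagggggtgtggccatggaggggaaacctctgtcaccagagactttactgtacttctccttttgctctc
CD38: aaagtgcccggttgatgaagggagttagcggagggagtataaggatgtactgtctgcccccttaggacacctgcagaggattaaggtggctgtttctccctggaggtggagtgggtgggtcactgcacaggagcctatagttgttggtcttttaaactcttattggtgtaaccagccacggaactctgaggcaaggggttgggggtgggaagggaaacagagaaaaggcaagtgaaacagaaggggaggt
CD52: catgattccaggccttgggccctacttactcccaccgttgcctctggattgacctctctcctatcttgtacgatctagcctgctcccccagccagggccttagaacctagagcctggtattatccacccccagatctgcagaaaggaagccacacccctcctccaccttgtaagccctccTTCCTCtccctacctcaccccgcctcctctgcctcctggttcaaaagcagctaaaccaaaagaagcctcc
The stretches lie at chr19:35328937-35329186, chr4:15778078-15778327 and chr1:26317708-26317957, all on the plus strand. The files use another build (hg19), and no measurement was joined to these positions. The GC content was 52.8% for CD22, 52.4% for CD38 and 56.4% for CD52, against a median of 57.6% over 27305 promoters. CD22 held 7 CpG dinucleotides and CD38 and CD52 held 3 each, against a median of 10. The search took in 6 motifs on both strands, with no match overlapping another: the octamer ATGCAAAT, the PU box GAGGAA, the GC box GGGCGG, the E-box CACGTG, the cAMP response element TGACGTCA and the TATA box TATAAA. CD52 carried the PU box as its reverse complement, 70 bases before the start, and this motif occurs in 23.4% of all promoters. None of the 6 was found in the stretches of CD22 and CD38. Over all promoters the GC box was found in 41.3%, the TATA box in 11.4%, the E-box in 6.28%, the cAMP response element in 1.73% and the octamer in 1.68%.

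After chidamide, 5 of the 9 genes rose in both lines: MS4A1, CD22, CD38, SLAMF7 and TNFRSF13C. Over all genes tested, 24.1% were higher in both lines. Under the JeKo-1 label 5 of the 9 rose, 1 fell and 3 were not called, where 35.3% of all tested genes were higher and 31.1% lower. In Granta-519 6 rose, 2 fell and 1 was not called, where 39.6% were higher and 31.3% lower. A call is a Benjamini-Hochberg adjusted p under 0.05 in edgeR's quasi-likelihood test, adjusted over all 15087 genes. The median log2 change of the 9 was 0.27 under the JeKo-1 label and 0.26 in Granta-519, beside 0.04 and 0.08 over all tested genes. Of the calls over all genes, 53.1% were rises under the JeKo-1 label, and 64.9% and 63.6% with upper-quartile scaling or library totals, which shifted the median of all genes there by 0.15 and 0.13; the 6 antigen genes called kept their direction under both. Changes of at least 2-fold were rises of CD22 and SLAMF7 under the JeKo-1 label and of SLAMF7 in Granta-519. CD22 lay at that limit, with a log2 change of 1.00 that was 0.945 without vehicle replicate 3 of the JeKo-1 label, and SLAMF7 in Granta-519 was at 0.96 without a count filter. Such rises made up 17.1% and 18.2% of all tested genes. Without a spike-in, levels are shares of each library, and in bulk RNA fewer cells with a transcript and less transcript per cell cannot be told apart.

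**Figure D1:**
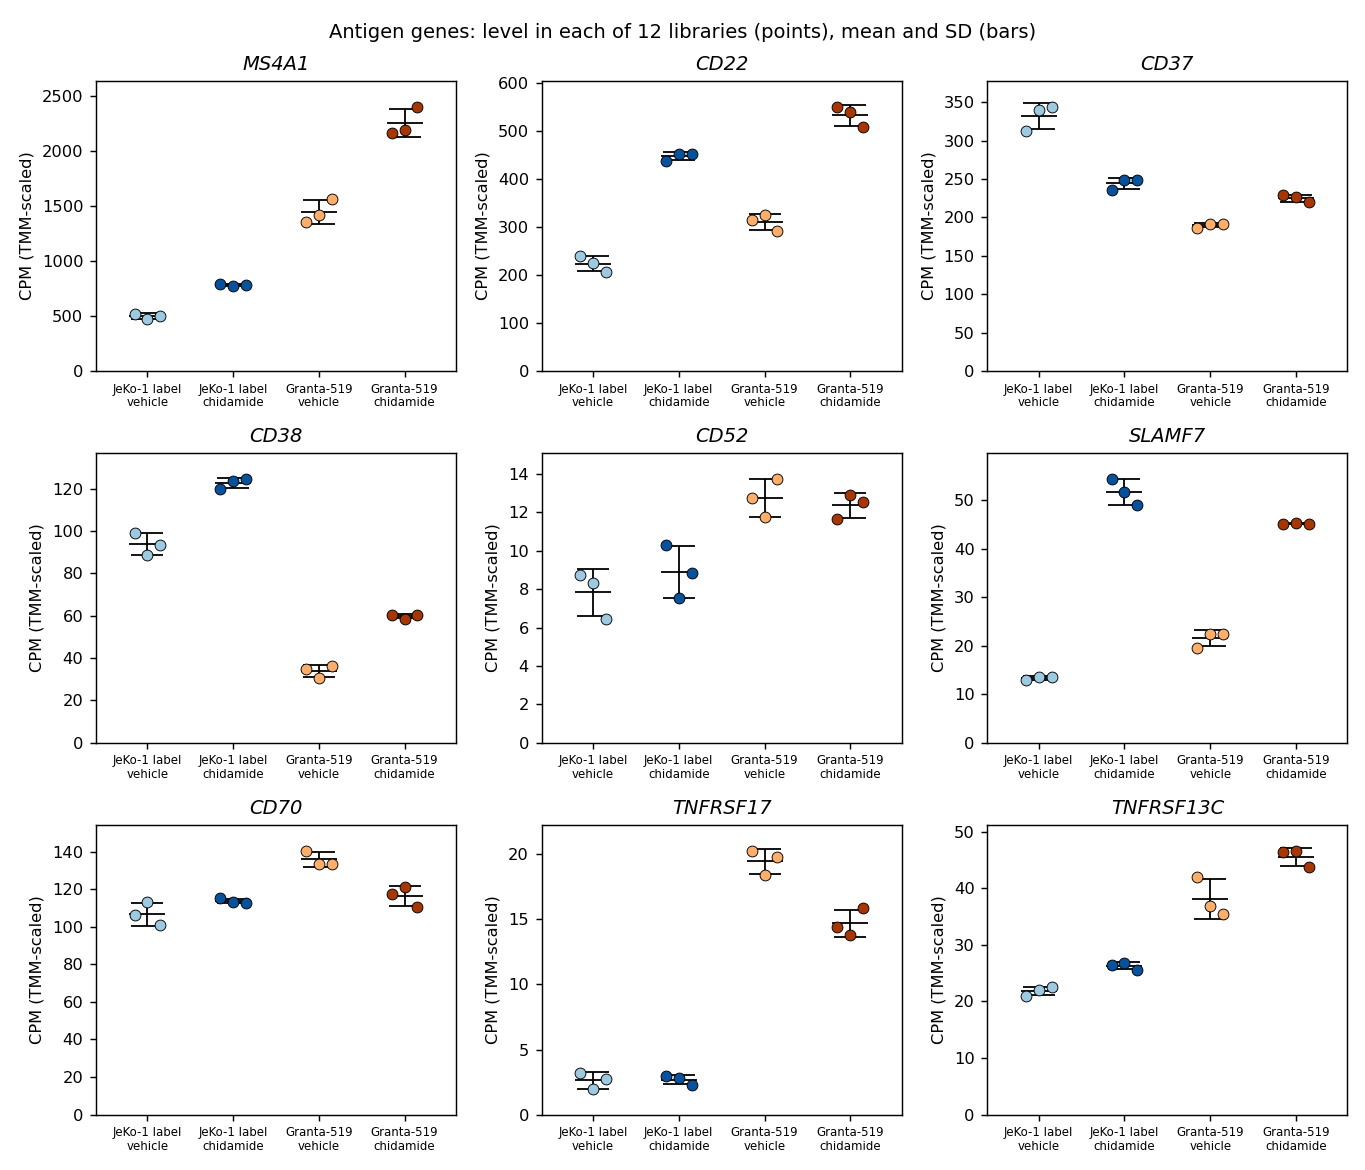
Level of the 9 antigen genes in each library, in CPM on TMM-scaled library sizes with axes from 0; points are libraries and bars the mean and SD of 3. MS4A1, CD22, CD38, SLAMF7 and TNFRSF13C sit higher after chidamide in both lines without overlap, and CD37 sits lower under the JeKo-1 label and higher in Granta-519.

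MS4A1 had the highest CPM of the 9 genes in every group and rose by a like amount in both lines. With the JeKo-1 label the vehicle libraries held 522, 471 and 504 CPM and the chidamide libraries 794, 773 and 778 CPM. In Granta-519 the vehicle libraries held 1352, 1418 and 1568 CPM and the chidamide libraries 2164, 2194 and 2397 CPM. Vehicle and chidamide did not overlap in either line, and every Granta-519 library lay above every library labelled JeKo-1. The log2 change was 0.65 ± 0.04 under the JeKo-1 label (SE; edgeR adjusted p = 2.77e-16) and 0.64 ± 0.04 in Granta-519 (edgeR adjusted p = 1.49e-16). The difference between these changes was 0.01, with a 95% interval from −0.12 to 0.13 (edgeR adjusted p = 0.982). Without a filter on low counts the difference was called, at 0.17 (edgeR adjusted p = 0.0102), and over all 20 alternatives the adjusted p ran up to 1.

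CD37 was the only one of the 9 to be called in opposite directions. Its vehicle libraries under the JeKo-1 label held 313, 340 and 343 CPM, and those with chidamide 236, 249 and 249 CPM. The Granta-519 libraries held 187, 191 and 192 CPM in vehicle and 229, 227 and 220 CPM with the drug. The groups did not overlap in either line, and the 2 lines, far apart in vehicle, came close to each other in chidamide. CD37 fell by 0.44 ± 0.04 on the log2 scale under the JeKo-1 label (SE; edgeR adjusted p = 6.64e-14) and rose by 0.25 ± 0.04 in Granta-519 (edgeR adjusted p = 1.03e-06). The difference between the changes, −0.69 ± 0.06, passed the test (edgeR adjusted p = 2.28e-14). In the GENCODE v29 annotation, 319 bases (7.67%) of the CD37 exons lie opposite exons of TEAD2, a transcription factor gene that rose from 0.697 to 3.78 CPM under the JeKo-1 label and from 11.9 to 28.6 CPM in Granta-519. The strand setting of the counting is unknown from the sources used here, and the part of TEAD2 reads in the CD37 count was not tested.

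CD52 was scarce and did not pass the test in either line. The vehicle libraries under the JeKo-1 label held 8.74, 8.32 and 6.46 CPM and the chidamide libraries 10.3, 7.54 and 8.84 CPM. Granta-519 held 12.8, 11.8 and 13.7 CPM in vehicle and 11.6, 12.9 and 12.5 CPM in chidamide. Treated and untreated libraries overlapped in both lines, while both Granta-519 groups lay above both groups with the other label. Its log2 change was 0.18 ± 0.14 under the JeKo-1 label, with a 95% interval from −0.10 to 0.45 (edgeR adjusted p = 0.251), and −0.04 ± 0.12 in Granta-519, with an interval from −0.28 to 0.20 (edgeR adjusted p = 0.755). These rest on 317 and 419 counts under the JeKo-1 label and 588 and 538 in Granta-519, vehicle first. Upper-quartile scaling gave 0.33 under the JeKo-1 label, which passed (edgeR adjusted p = 0.0335), as did library totals alone and the deposited score (0.31 each), and over all 21 alternatives the adjusted p ran from 0.0335 to 0.744. UBXN11, which overlaps the CD52 exons by 25 bases (2.67%) on the opposite strand, fell from 55.2 ± 3.32 to 17.0 ± 1.02 CPM and from 14.3 ± 1.63 to 5.59 ± 0.620 CPM, and its part in the CD52 count was not tested. The difference between lines, 0.22, had a 95% interval from −0.14 to 0.59 (edgeR adjusted p = 0.361).

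CD22 rose in every treated library. It stood at 239, 225 and 207 CPM in vehicle and 438, 454 and 453 CPM in chidamide under the JeKo-1 label. In Granta-519 it stood at 316, 325 and 291 CPM in vehicle and 550, 541 and 509 CPM in chidamide. No library with the drug reached down to a vehicle library of its line, and even the lowest treated library under the JeKo-1 label, at 438 CPM, lay above the highest Granta-519 vehicle library. The log2 change was 1.00 ± 0.04 under the JeKo-1 label (SE; edgeR adjusted p = 3.2e-26) and 0.78 ± 0.04 in Granta-519 (edgeR adjusted p = 3.19e-22). The former was larger by 0.22 ± 0.06 (edgeR adjusted p = 0.00339).

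Among the 9 partners of CD22 in signalling, which were all tested, 4 rose and 4 fell under the JeKo-1 label, and 5 rose and 4 fell in Granta-519. Their median log2 changes were 0.07 and 0.13, near the 0.04 and 0.08 of all genes. Of all tested genes, 35.3% rose and 31.1% fell under the JeKo-1 label, and 39.6% rose and 31.3% fell in Granta-519. LYN, the kinase that phosphorylates the tail of CD22, rose from 75.3 ± 6.47 to 165 ± 4.36 CPM under the JeKo-1 label and from 171 ± 5.07 to 298 ± 7.52 CPM in Granta-519 (SD, n = 3). BLNK, the adaptor that links the B-cell receptor to its effectors, fell from 66.7 to 31.6 CPM and from 163 to 98.1 CPM. PLCG2, the phospholipase that releases calcium signals, had a log2 change of 1.07 ± 0.04 in Granta-519 and 0.11 ± 0.04 under the JeKo-1 label, and both passed. Of the 9 partners, 7 had a more positive change in Granta-519 and 2 under the JeKo-1 label, with the interaction called for each. Over all tested genes these shares were 19.5% and 20%. Library totals shifted the median difference of all genes by 0.13 towards the JeKo-1 label, and whether the 7 stayed called under them was not tested.

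SLAMF7 changed the most of the 9 in both lines. It went from 13.0, 13.5 and 13.6 CPM in vehicle to 54.3, 51.8 and 49.0 CPM in chidamide under the JeKo-1 label. Granta-519 went from 19.6, 22.5 and 22.5 CPM to 45.2, 45.3 and 45.0 CPM. Treated and untreated libraries were far apart in both lines, and the line with the lower level in vehicle had the higher one in chidamide. These are rises of 3.88-fold (log2 change 1.95 ± 0.08; edgeR adjusted p = 8.7e-28) and 2.1-fold (1.07 ± 0.08; edgeR adjusted p = 2.63e-18). The change under the JeKo-1 label was larger by 0.89 ± 0.12 on the log2 scale (edgeR adjusted p = 6.33e-09).

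Among 11 other genes of the SLAM family and its adaptors, 7 could be tested. Under the JeKo-1 label 5 rose and 2 fell, and in Granta-519 4 rose and 2 fell, with median log2 changes of 0.57 and 1.01. Among all tested genes 35.3% rose and 31.1% fell under the JeKo-1 label, and 39.6% and 31.3% in Granta-519. The medians of all genes were 0.04 and 0.08. CD244, of the SLAM list, would not have passed the filter on low counts on the vehicle libraries alone. Both falls under the JeKo-1 label were no longer called with upper-quartile scaling or library totals. LY9, a homophilic SLAM receptor, rose from 19 to 381 counts over 3 libraries under the JeKo-1 label and from 19.5 ± 1.36 to 39.1 ± 0.649 CPM in Granta-519 (SD, n = 3). FYN, the kinase that SLAM receptors recruit, rose in Granta-519 by 1.64 ± 0.09 on the log2 scale and under the JeKo-1 label by 0.25 ± 0.06. CD48, the ligand of a SLAM receptor, fell from 69.3 to 45.6 CPM in Granta-519 and from 123 to 108 CPM under the JeKo-1 label. SH2D1A and SH2D1B, the genes of the adaptors that carry SLAM signals in T and natural killer cells, had at most 1 and 5 counts in any group.

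CD38 rose in both lines, and more in the line where it was scarcer. For CD38 the vehicle libraries labelled JeKo-1 held 99.1, 88.7 and 93.6 CPM and the chidamide libraries 120, 124 and 125 CPM. The Granta-519 libraries held 34.8, 30.6 and 36.2 CPM in vehicle and 60.2, 58.6 and 60.6 CPM in chidamide. All 4 groups were separate, and the treated Granta-519 libraries stayed below the vehicle libraries labelled JeKo-1. The log2 change was 0.39 ± 0.05 under the JeKo-1 label (SE; edgeR adjusted p = 1.21e-08) and 0.82 ± 0.06 in Granta-519 (edgeR adjusted p = 6.31e-17). Their difference of −0.43 ± 0.08 passed the test (edgeR adjusted p = 2.74e-05).

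Of 7 other ectoenzymes and enzymes that handle NAD or nucleotides, 6 were tested. They comprised 4 rises and 1 fall under the JeKo-1 label, while 5 rose and none fell in Granta-519. Their median log2 changes were 0.40 and 0.46. The shares of all tested genes were 35.3% higher and 31.1% lower under the JeKo-1 label, and 39.6% higher and 31.3% lower in Granta-519. ENPP1, which splits nucleotides outside the cell, rose from 12.1 ± 1.49 to 46.7 ± 2.40 CPM under the JeKo-1 label and from 7 to 207 counts over 3 libraries in Granta-519. NT5E, the enzyme that makes extracellular adenosine, went from 0 to 7 counts under the JeKo-1 label, at least 1.99-fold higher against a limit of 3 counts over the vehicle group, and stood at 0.648 and 0.874 CPM in Granta-519, which did not pass (edgeR adjusted p = 0.392). NT5E and DPP4, 2 of the 6, would not have passed the filter on low counts on the vehicle libraries alone. NAMPT, which makes the precursor of NAD, had a log2 change of −0.28 ± 0.05 under the JeKo-1 label and 0.15 ± 0.05 in Granta-519, both called. BST1, the paralog of CD38, did not reach the filter, with 3 to 20 counts per group.

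CD70 fell in Granta-519 and was not called under the JeKo-1 label. Its libraries labelled JeKo-1 held 106, 113 and 101 CPM in vehicle and 115, 113 and 113 CPM in chidamide. In Granta-519 they held 140, 134 and 134 CPM in vehicle and 117, 121 and 111 CPM in chidamide. The groups overlapped under the JeKo-1 label and were separate in Granta-519, and the 2 treated groups lay among each other. In Granta-519 the gene fell by 0.22 ± 0.05 on the log2 scale (SE; edgeR adjusted p = 7.83e-05). The change under the JeKo-1 label was 0.09 ± 0.05 with a 95% interval from −0.01 to 0.19 (edgeR adjusted p = 0.104). It passed as a rise in 7 of 21 alternatives, among them DESeq2 (0.12, adjusted p = 0.0479) and the fit without vehicle replicate 2 (0.15, edgeR adjusted p = 0.0122), and over all 21 the adjusted p ran from 6.33e-05 to 0.433. The difference of 0.32 ± 0.07 between the lines passed (edgeR adjusted p = 0.000249).

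CD27, the receptor of CD70, fell in both lines, from 53.8 ± 4.28 to 24.3 ± 1.1 CPM under the JeKo-1 label and from 16.7 ± 1.44 to 9.93 ± 0.414 CPM in Granta-519 (SD, n = 3). The log2 changes were −1.15 ± 0.08 and −0.75 ± 0.10 (edgeR adjusted p = 8.11e-19 and 7.07e-09). In the list of CD27, its adaptors and other TNF ligands, 11 of 13 genes were tested. Of these, 7 rose and 2 fell under the JeKo-1 label, and 9 rose and 2 fell in Granta-519, with medians of 0.54 and 0.46. All tested genes had shares of 35.3% higher and 31.1% lower under the JeKo-1 label, and 39.6% and 31.3% in Granta-519. The 2 of the list that fell were CD27 and SIVA1, which encodes a protein that binds the tail of CD27 and went from 108 to 63.9 CPM and from 141 to 75.2 CPM. TNFSF4, the OX40 ligand, rose from 21.8 ± 1.01 to 69.6 ± 2.34 CPM in Granta-519 and from 2.01 ± 0.443 to 2.95 ± 0.601 CPM under the JeKo-1 label. TNFSF8, the CD30 ligand, rose from 2 to 25 counts and from 159 to 454 counts over 3 libraries.

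TNFRSF17, the receptor that plasma cells depend on, fell in Granta-519 and was scarce under the other label. The libraries labelled JeKo-1 held 3.21, 1.95 and 2.73 CPM in vehicle and 2.95, 2.77 and 2.29 CPM in chidamide, from 106 and 125 counts in all. Granta-519 held 20.3, 18.4 and 19.8 CPM in vehicle and 14.4, 13.8 and 15.9 CPM in chidamide. Treated and untreated libraries were mixed under the JeKo-1 label and separate in Granta-519. The log2 change was −0.41 ± 0.11 in Granta-519 (SE; edgeR adjusted p = 0.000873). Under the JeKo-1 label it was 0.02 ± 0.21 with a 95% interval from −0.40 to 0.44, whose lower end is close to the change in Granta-519 (edgeR adjusted p = 0.985). The difference of 0.42, with an interval from −0.05 to 0.90, did not pass (edgeR adjusted p = 0.158), and passed with the deposited score (0.55, limma adjusted p = 0.0229), within a range of 0.0229 to 0.496 over the alternatives.

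TNFRSF13C rose a little in both lines. It stood at 21.0, 22.0 and 22.5 CPM in vehicle and 26.5, 26.9 and 25.6 CPM in chidamide under the JeKo-1 label. Granta-519 libraries stood at 42.0, 36.9 and 35.4 CPM in vehicle and 46.4, 46.6 and 43.8 CPM in chidamide. The groups did not overlap, and vehicle replicate 1 of Granta-519 lay closest to the treated libraries. The log2 change was 0.27 ± 0.08 under the JeKo-1 label (SE; edgeR adjusted p = 0.00381) and 0.26 ± 0.07 in Granta-519 (edgeR adjusted p = 0.00139), the latter lost without a filter on low counts (0.15, edgeR adjusted p = 0.0838; 2.56e-05 to 0.0838 over 21 alternatives). The difference of 0.01 had a 95% interval from −0.21 to 0.23 (edgeR adjusted p = 0.986).

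The other genes of the BAFF and APRIL pathway moved in both directions: of 12 tested, 4 rose and 5 fell under the JeKo-1 label and 5 rose and 3 fell in Granta-519, with medians of 0.07 and 0.02. Over all tested genes 35.3% rose and 31.1% fell under the JeKo-1 label, and 39.6% rose and 31.3% fell in Granta-519. BIRC3, an inhibitor of apoptosis that holds the pathway in check, rose from 830 ± 62.9 to 1302 ± 60.1 CPM and from 240 ± 15.1 to 573 ± 34.4 CPM (SD, n = 3). RELB, a subunit of NF-kB at the end of the pathway, fell from 102 to 77.3 CPM and from 133 to 74.6 CPM. TRAF2, the adaptor that recruits BIRC3, fell from 68.6 to 44.4 CPM and from 61.4 to 44.6 CPM. TNFSF13, the gene of the ligand APRIL, rose under the JeKo-1 label from 2.83 to 4.44 CPM and stood at 2.43 and 2.41 CPM in Granta-519 (edgeR adjusted p = 0.98). TNFRSF13B (TACI), the remaining receptor of these ligands and named here after its values were seen, was not called: it stood at 16.3 and 16.0 CPM under the JeKo-1 label and 41.0 and 37.0 CPM in Granta-519. Gamma-secretase, the protease that sheds TNFRSF17 from the membrane, had 2 of its 6 subunit genes higher and 3 lower in each line, with medians of −0.13 and −0.31. PSENEN, a subunit needed for its activity, fell from 21.9 to 10.2 CPM and from 28.8 to 12.8 CPM. APH1B rose from 17.2 ± 1.84 to 37.1 ± 1.78 CPM in Granta-519 and from 3 to 40 counts under the JeKo-1 label, and PSEN2 from 3 to 42 counts under the JeKo-1 label.

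**Figure D2:**
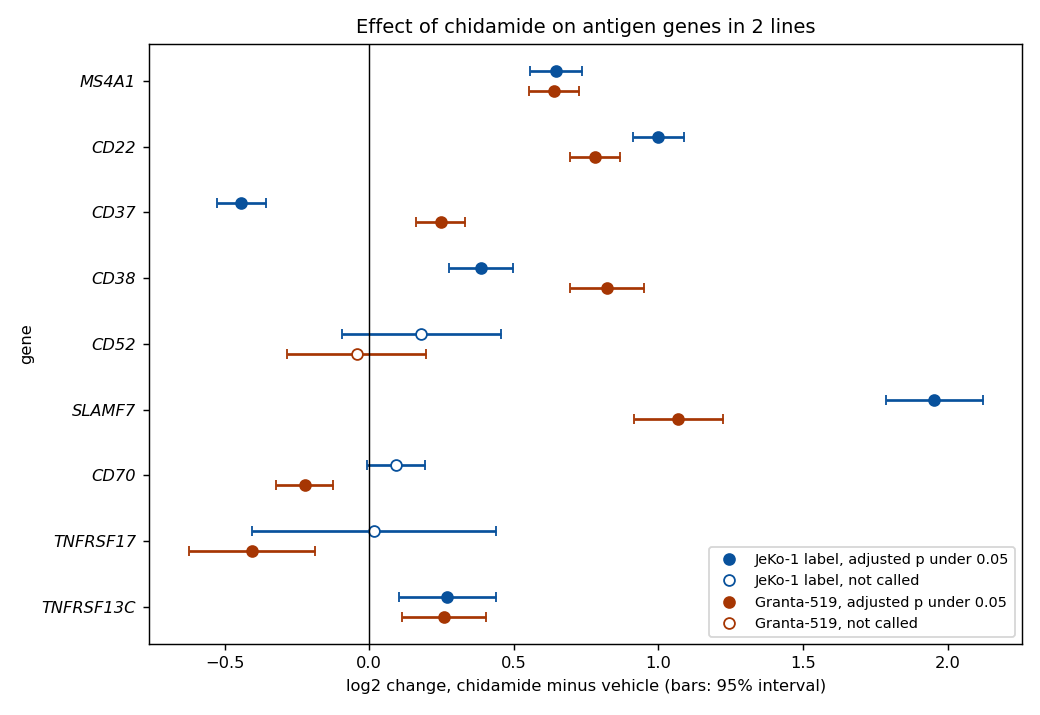
Log2 change of each antigen gene, chidamide minus vehicle, with 95% intervals, in the libraries labelled JeKo-1 (blue) and in Granta-519 (red-brown); filled points have an edgeR adjusted p under 0.05. The intervals of CD37 lie on opposite sides of 0, those of MS4A1 and TNFRSF13C nearly coincide between the lines, and those of CD52 include 0 in both.

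The interaction of line and drug was called for 5 of the 9 genes. The change was more positive under the JeKo-1 label for CD22, SLAMF7 and CD70, where 20% of all tested genes were, and more positive in Granta-519 for CD37 and CD38, where 19.5% were. Of all interactions called, 50.6% were more positive under the JeKo-1 label, 70% with library totals and 72.9% without a count filter. For MS4A1, CD52, TNFRSF17 and TNFRSF13C the interaction was not called.

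The lines themselves differed in all 9 genes before the drug. In vehicle, CD37 and CD38 were higher under the JeKo-1 label, where 35.5% of all tested genes were higher, and the other 7 were higher in Granta-519, where 44.3% were. The largest of these differences was in TNFRSF17, at 7.35-fold, followed by MS4A1 at 2.90-fold in favour of Granta-519 and CD38 at 2.77-fold in favour of the JeKo-1 label. No gene of the 9 had overlapping vehicle groups, and neither did 79.4% of all tested genes. In chidamide, 3 were higher under the JeKo-1 label (CD37, CD38 and SLAMF7) and 5 in Granta-519, with CD70 not called, beside 36.4% and 45.3% of all tested genes. SLAMF7 changed sides, from a log2 difference of −0.69 between the lines in vehicle to 0.20 in chidamide (edgeR adjusted p = 0.00898). CD37 went from 0.81 to 0.12 (edgeR adjusted p = 0.0091), and CD70 from −0.35 to −0.03 with a 95% interval from −0.13 to 0.07 (edgeR adjusted p = 0.549). The calls of CD37 and SLAMF7 in chidamide were lost when 10 or more counts were required in every library (edgeR adjusted p = 0.205 and 0.0659). That of SLAMF7 was also lost without chidamide replicate 1 of the JeKo-1 label (edgeR adjusted p = 0.0957), and that of CD37 without replicates 2 or 3 of the same group or replicate 3 of Granta-519 chidamide (0.0682, 0.0774 and 0.0803). Over 20 alternatives the adjusted p ran from 0.000234 to 0.205 for CD37 and from 0.00116 to 0.0957 for SLAMF7.

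Ordered by group, the levels of MS4A1, CD22, CD37, CD38, SLAMF7 and TNFRSF13C formed 4 steps with no overlap between neighbours, as did those of 28.7% of all tested genes. MS4A1 and TNFRSF13C ran from Granta-519 chidamide through Granta-519 vehicle and JeKo-1 label chidamide down to JeKo-1 label vehicle, whereas CD22 had both treated groups on top. From the lowest to the highest group the mean CPM differed 1.27-fold for CD70, 1.63-fold for CD52, 1.75-fold for CD37, 4.51-fold for MS4A1 and 7.41-fold for TNFRSF17. Neighbouring groups overlapped for CD52 (vehicle and chidamide of each line), for CD70 (Granta-519 chidamide with JeKo-1 label chidamide, and that with JeKo-1 label vehicle) and for TNFRSF17 (both groups with the JeKo-1 label).

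To compare levels between genes, CPM was divided by the length of all exons of a gene in kb, taken from GENCODE v29. MS4A1 then led in every group, at 103 CPM per kb in JeKo-1 label vehicle, 160 with chidamide, 297 in Granta-519 vehicle and 462 with chidamide. CD70, CD37 and CD22 came next, all between 36.3 and 88.7 CPM per kb. CD70 stayed within 69.6 to 88.7 CPM per kb in all groups and CD22 ran from 36.3 to 86.6. CD38, CD52, SLAMF7, TNFRSF17 and TNFRSF13C were all at or below 17.9 CPM per kb. This order, and the shares that follow, rest on these exon lengths. By the deposited score, CD37 led in JeKo-1 label vehicle, at 41.53, 44.78 and 45.72, against 25.71, 23.06 and 24.94 for MS4A1. There CD38 also lay above CD22, at 12.34, 10.98 and 11.69 against 9.426, 8.805 and 8.183. In every other group MS4A1 led by the score as well. Of the summed level of the 9 genes per kb, MS4A1 made up 31.9% in JeKo-1 label vehicle, 38.8% with chidamide, 55.8% in Granta-519 vehicle and 62.9% with chidamide, and the share of CD37 was 24.9%, 14.2%, 8.58% and 7.37% in the same order.

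**Figure D3:**
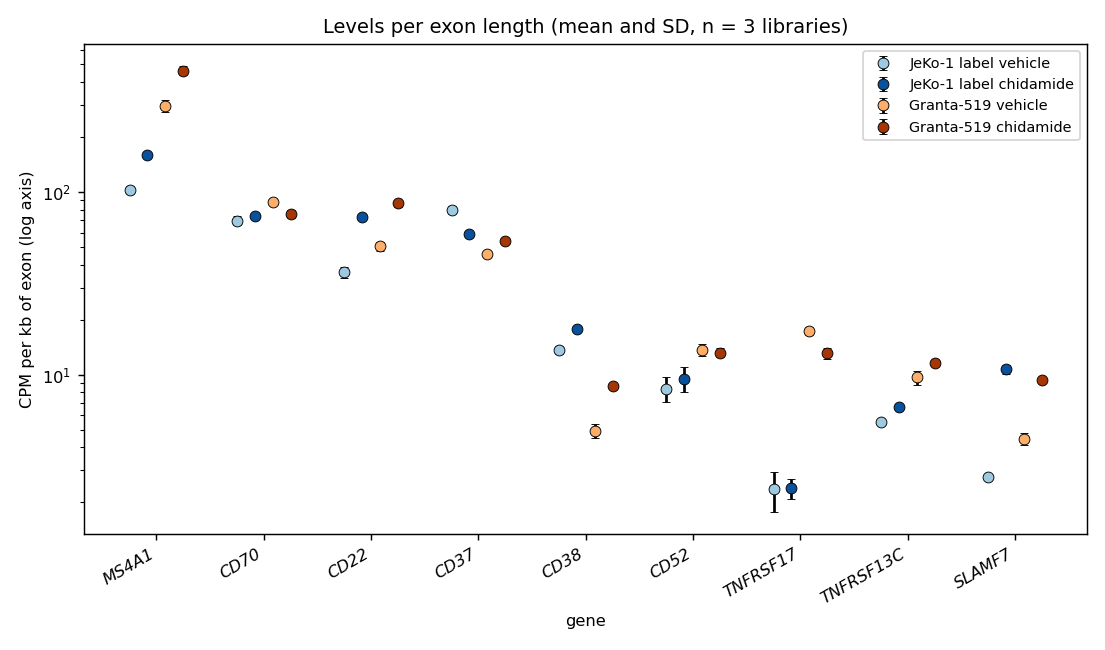
Mean level per kb of exon on a log axis, with the SD of 3 libraries, for the 9 genes in the 4 groups. With these exon lengths MS4A1 lies above all others in each group, and TNFRSF17 is split by line, near 2.35 CPM per kb under the JeKo-1 label and 13.1 to 17.4 in Granta-519.

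Genes that share a family, an anchor or a use with the 9 were read in the same way. For comparison, 35.3% of all tested genes rose and 31.1% fell under the JeKo-1 label, and 39.6% and 31.3% in Granta-519. Of 18 tested further antigens used in therapy, 9 rose and 4 fell under the JeKo-1 label and 11 rose and 4 fell in Granta-519, with medians of 0.36 (0.29 with CD24, which had 0 counts in vehicle, set to no change) and 0.33. CD79A, a chain of the B-cell receptor, fell from 755 ± 59.8 to 503 ± 14.0 CPM under the JeKo-1 label and from 613 ± 14.3 to 505 ± 25.5 CPM in Granta-519 (SD, n = 3). IL2RA, the interleukin-2 receptor chain CD25, rose from 3 to 96 counts and from 5 to 215 counts over 3 libraries; it passed the filter on low counts only through its chidamide libraries, so a change in it was bound to appear. SDC1 (CD138), the plasma-cell antigen, fell from 91.5 ± 5.89 to 54.8 ± 2.62 CPM in Granta-519 and had 1 count in all under the JeKo-1 label.

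In the family of MS4A1, 14 of 15 listed genes were in the table, and 5 could be tested. All 5 rose in both lines, as did 24.1% of all tested genes. The medians of the 5 were 4.66 under the JeKo-1 label (3.31 with the 2 genes at 0 counts in vehicle set to their lower bound) and 2.16 in Granta-519. MS4A4A, MS4A8 and MS4A15 had at most 22 counts in a vehicle group and passed the filter through chidamide, and the other 9 had at most 30 counts in any group, so these figures do not describe the family as a whole. MS4A8 went from 0 to 30 counts under the JeKo-1 label, at least 8.45-fold higher, and from 4 to 21 in Granta-519. MS4A15 went from 2 to 68 counts and from 3 to 28.

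Tetraspanins, the family of CD37, were mixed. Of 16 tested, 4 rose and 9 fell under the JeKo-1 label, of which 6 fell with upper-quartile scaling or library totals, and 8 rose and 4 fell in Granta-519. Their medians were −0.16 and 0.18. All tested genes were 35.3% higher and 31.1% lower under the JeKo-1 label, and 39.6% and 31.3% in Granta-519. TSPAN17 fell from 28.5 to 12.9 CPM and from 19.6 to 6.44 CPM, and TSPAN7 rose from 0 to 10 counts under the JeKo-1 label, at least 2.92-fold, and from 7 to 166 counts in Granta-519. TSPAN7 passed the filter only through chidamide, so that its rise was bound to appear, and TSPAN13 would not have passed on the vehicle libraries alone either. TSPAN13 fell from 38 to 13 counts under the JeKo-1 label and rose from 9 to 27 in Granta-519. CD81, a widely expressed tetraspanin named after its values were seen, fell from 265 ± 15.2 to 85.6 ± 2.82 CPM and from 158 ± 0.501 to 67.5 ± 4.32 CPM.

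Genes that build the GPI anchor, which CD52 needs to reach the surface, fell more often than they rose in Granta-519, with 14 lower and 5 higher of 23 tested and a median of −0.39. Over all tested genes there, 31.3% fell and 39.6% rose. Of the 23, 8 rose and 10 fell under the JeKo-1 label, with a median of −0.11, beside 35.3% and 31.1% of all tested genes. This split of the 23 turned to 11 and 7 with upper-quartile scaling and 10 and 7 with library totals. PIGA, which carries out the opening step of the anchor, fell from 16.8 ± 1.14 to 8.67 ± 0.126 CPM and from 17.7 ± 2.32 to 8.99 ± 0.314 CPM (SD, n = 3). PIGP, of the same enzyme complex, rose from 4.63 to 10.8 CPM and from 7.06 to 10.1 CPM, and PIGM, a mannosyltransferase, rose from 16.2 to 28.0 CPM and from 21.6 to 36.0 CPM.

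The list of complement regulators held genes that limit complement attack on antibody-coated cells and the receptor gene CR2, and all 6 were tested. All 6 rose under the JeKo-1 label and 4 rose in Granta-519, with none lower and medians of 1.67 and 0.81. Over all tested genes 35.3% and 39.6% rose. Of the 6, 1 passed the filter only through chidamide. CD46 and CD55 were not called in Granta-519, with log2 changes of −0.07 and 0.03 (edgeR adjusted p = 0.258 and 0.725). CR2 (CD21), the complement receptor of mature B cells and named after its values were seen, rose from 234 ± 13.5 to 742 ± 23.6 CPM and from 127 ± 7.54 to 441 ± 18.5 CPM.

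The transcription factors that act on B-cell antigen genes divided. Of 17 tested, 7 rose and 9 fell under the JeKo-1 label, and 11 rose and 4 fell in Granta-519, with medians of −0.14 and 0.38. Over all tested genes 35.3% rose and 31.1% fell under the JeKo-1 label, and 39.6% and 31.3% in Granta-519. PAX5, the factor that holds B-cell identity, fell from 547 ± 22.7 to 375 ± 2.26 CPM and from 693 ± 26.1 to 479 ± 4.42 CPM (SD, n = 3). SPI1, the gene of PU.1, which binds the PU box, fell from 83.9 to 47.4 CPM and from 38.4 to 22.4 CPM. TCF3 fell from 890 to 500 CPM and from 630 to 460 CPM. FOXO1 rose from 4.25 ± 0.865 to 29.1 ± 0.781 CPM in Granta-519 and from 94.7 ± 2.40 to 140 ± 6.28 CPM under the JeKo-1 label. PRDM1, the driver of plasma-cell differentiation, rose from 0.912 to 1.93 CPM and from 12.5 to 18.7 CPM, while the 6 plasma-cell markers found in the table, TNFRSF17 among them, summed to 244 to 257 and 275 to 278 CPM under the JeKo-1 label and to 552 to 563 and 516 to 539 CPM in Granta-519, vehicle first.

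**Figure D4:**
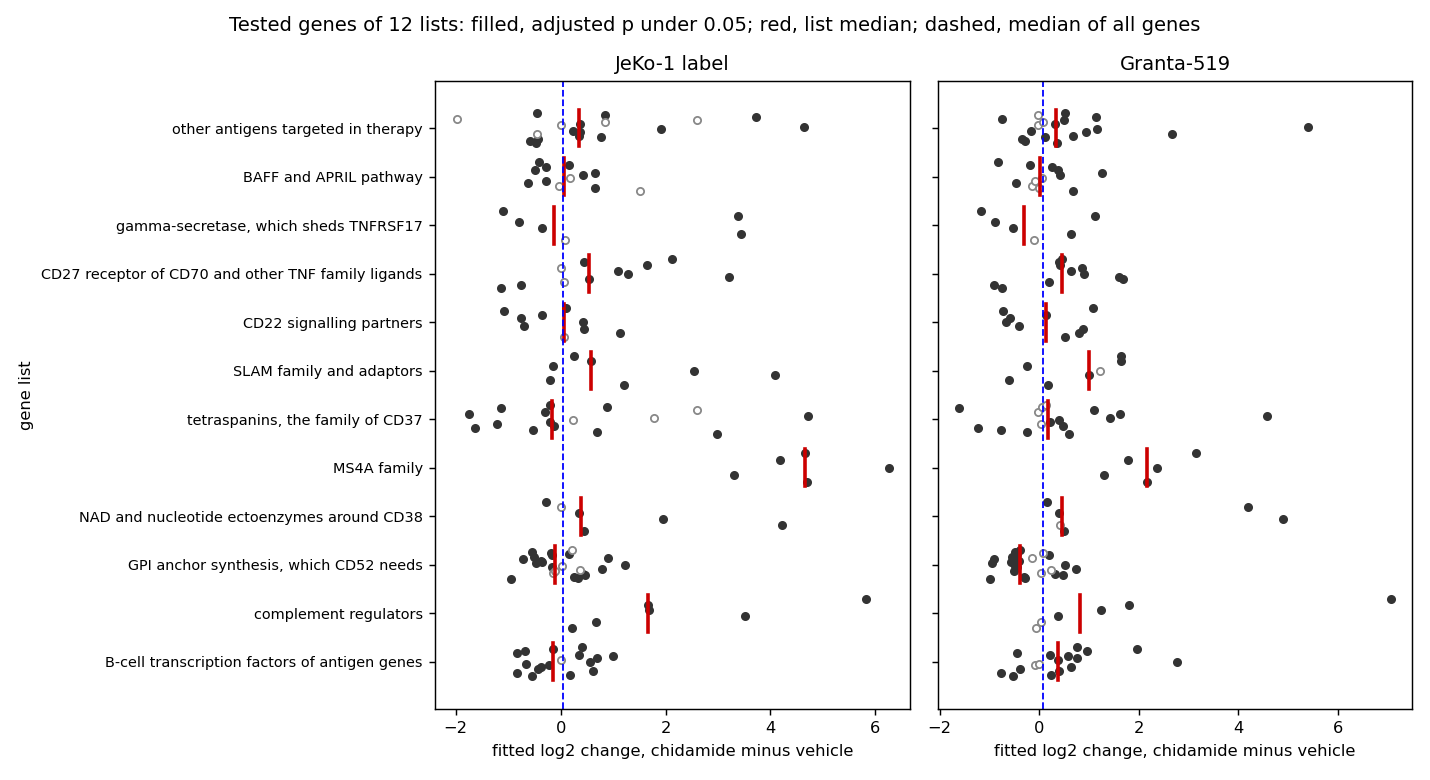
Fitted log2 change of every tested gene of the 12 lists in both lines; filled points have an edgeR adjusted p under 0.05, red bars are list medians and the dashed line is the median of all tested genes (0.04 and 0.08). The MS4A relatives lie to the right of 0, and GPI anchor genes lie mostly to its left in Granta-519. MS4A4A, MS4A8 and MS4A15 passed the filter on low counts only through chidamide, so their place was bound to appear.

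Markers of other cells were read beside these rises. The 8 myeloid markers summed to 1.82 to 4.10 CPM in vehicle and 36.8 to 37.6 CPM in chidamide under the JeKo-1 label, and to 26.2 to 26.5 and 95.7 to 103 CPM in Granta-519. ITGAM, an integrin chain of myeloid cells, went from 2.42 to 24.2 CPM under the JeKo-1 label and from 24.9 to 79.2 CPM in Granta-519, and CSF1R, the receptor of macrophage colony-stimulating factor, from 0.176 to 8.82 CPM and from 0.973 to 19.7 CPM. The neutrophil gene S100A8 was at 0 in 3 of the 4 groups and MPO in 3. The T-cell and natural killer markers summed to 2.73 to 4.35 and 5.40 to 8.09 CPM under the JeKo-1 label and to 0.586 to 0.885 and 2.57 to 3.53 CPM in Granta-519. The 8 epithelial and stromal markers summed to 26.2 to 30.2 and 37.1 to 40.9 CPM, and to 64.9 to 70 and 80.6 to 86.4 CPM. The 4 erythroid markers summed to at most 1.34 CPM in any library. The part of these markers in the changes of the antigen genes was not tested.

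Finally, the genes whose log2 CPM ran most alike with each antigen gene over the 12 libraries were listed, among 10794 genes with a mean of at least 5 CPM. The libraries share 4 groups, so r mostly describes agreement of 4 group levels. MS4A1 ran closest to PMAIP1 (r = 0.998), IL6ST and TNFAIP8 (0.997 each). CD22 ran closest to ADAM19 (0.993), C5 (0.990) and AHDC1 (0.989), and CD37 to GGA2 (0.989), AKAP1 (0.982) and TNIP2 (0.980). For CD38 the list was led by SLAMF6 (0.997), a SLAM receptor, then SERPINA9 (0.996) and NCALD (0.995). SLAMF7 ran with IER3 (0.994), MYCL and SLFN5 (0.989 each). TNFRSF13C had CCND2 (0.991), NLRC5 and TSTD1 (0.990 each), and TNFRSF17 had EXOC8 (0.998), IQGAP1 (0.997) and LIN54 (0.996). The weakest likeness was that of CD52, to AATBC (0.947), RENBP and CSMD1 (0.944 each), and of CD70, to FBXW4 (0.968), GPSM3 (0.964) and AGPAT1 (0.949). Some of the genes listed were near 0 under the JeKo-1 label, so their r leans on very low counts. CCND2 had 0 counts in vehicle and 8 in chidamide there, RENBP 3 and 17, and CSMD1 2 and 17. Among the 9 themselves, MS4A1 and TNFRSF13C had an r of 0.975 and CD22 and SLAMF7 of 0.950, whereas TNFRSF17 and CD38 had −0.909 and CD37 and CD70 −0.850.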

How the data were processed

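Polyadenylated RNA of 12 libraries in 4 groups was measured. Counts of reads by gene symbol were deposited by the authors. The aligner was STAR and the build hg19, per the submitters' processing notes, with version, counter, annotation and strand setting not given in the sources used here. Another deposited table, labelled as TPM, summed to 81790 to 84121 per library and was treated as a score; 6 unnamed columns in it were empty. It served as an alternative only, as log2(score + 0.1) in limma 3.58.1.

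Counts were fitted in 1 model of 4 group means over the 12 libraries with edgeR 4.0.16 in R 4.3.3 (filterByExpr, TMM, robust quasi-likelihood fit, 8 residual degrees of freedom). Benjamini-Hochberg adjustment covered all 15087 tested genes, with a threshold of 0.05. The SE was taken from the log2 change and the F statistic. Folds against 0 counts use 3 counts over the group, and such limits cover counting error only. The common biological coefficient of variation was 0.0422. Replicates of a group differed by more than sampling noise (chi-square of 1.63 to 5.63 per gene), so none was merged. DESeq2 1.42.0 and other settings were alternatives.

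The members and gene lists were chosen with earlier results of these data known. Named were the 9 genes, the largest called rise and fall of each list in each line, the 3 genes most alike to each of the 9, and cell type markers; others are marked in the text. Single values of some listed genes are not reported here.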

Additional observations from a re-analysis of the deposited data

Results flagged for a closer look

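The effect of chidamide differed between the lines, by the interaction term, for 5 of the 9 antigen genes. Over all tested genes it was more positive under the JeKo-1 label in 20% and in Granta-519 in 19.5%. On the log2 scale, JeKo-1 label minus Granta-519, the difference was 0.22 for CD22, −0.69 for CD37, −0.43 for CD38, 0.89 for SLAMF7 and 0.32 for CD70. CD37 fell in 1 line and rose in the other, with treated and untreated libraries apart in each. SLAMF7 and CD22 rose in both lines and more under the JeKo-1 label, CD38 rose in both and more in Granta-519, and CD70 was called in Granta-519 alone. Given the absence of SOX11 counts under the JeKo-1 label, the difference is between those libraries and Granta-519.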

How the results depend on the processing

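Over the alternatives, 883 of 918 values of the 9 genes kept their direction and side of the threshold, 7 lost a call, 12 gained one and 16 changed sign; 305 of 306 counts stayed within 1.5 times. The exception was the number of antigen genes higher under the JeKo-1 label in chidamide, 1 in place of 3 when 10 or more counts were required in every library. Values that changed sign were never called. CD52 in Granta-519 was 0.053 with upper-quartile scaling and 0.0436 with that filter, and ran from −0.103 to 0.0153 when single libraries were left out. Leaving out libraries also gave −0.150 to 0.214 for TNFRSF17 under the JeKo-1 label, and, for the difference between the lines, −0.0534 to 0.0543 for MS4A1 and −0.0631 to 0.0635 for TNFRSF13C. CD70 between the lines in chidamide was 0.0234 without a count filter.

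Whether the replicate numbers pair the libraries is unknown. Same-numbered libraries had correlations of their deviations from −0.0544 to 0.196, and differently numbered ones from −0.138 to 0.0774. The highest, 0.196, was between vehicle and chidamide replicate 3 of Granta-519. With the replicate block, 10068 genes were called under the JeKo-1 label (10016 without it), 10714 in Granta-519 (10695), 6092 for the difference (5956), 12046 between the lines in vehicle (12038) and 12339 in chidamide (12330), and the call of no antigen gene changed.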

Other observations

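The genes that lie next to the 9 on their chromosomes, 3 protein-coding genes on each side in the annotation, were read after the values of the 9 had been seen. Of 54 such neighbours 50 were in the table and 36 were tested. Under the JeKo-1 label 19 rose and 8 fell, and in Granta-519 22 rose and 7 fell, where 35.3% of all tested genes rose and 31.1% fell under the JeKo-1 label and 39.6% rose and 31.3% fell in Granta-519. Beside MS4A1, its relative MS4A7 rose from 3.55 ± 0.439 to 35.2 ± 0.895 CPM under the JeKo-1 label and from 43.1 ± 3.05 to 106 ± 3.42 CPM in Granta-519 (SD, n = 3), a larger log2 change (3.31 and 1.31) than that of MS4A1 in each line. Beside CD22, MAG, a sialic acid binding protein of myelin, rose from 7 to 84 counts and from 13 to 126 counts over 3 libraries, having passed the filter on low counts only through chidamide. Beside CD70, TNFSF9, the ligand of the costimulatory receptor 4-1BB, rose from 27.0 ± 1.1 to 65.5 ± 1.67 CPM and from 39.8 ± 4.44 to 73.7 ± 1.34 CPM, where CD70 fell or was not called. All 5 tested neighbours of CD37 rose in Granta-519, and 3 of them rose and none fell under the JeKo-1 label, where CD37 fell. Some were scarce: DKKL1 went from 12 to 72 counts in Granta-519, and CCDC155 from 26 to 175 and from 27 to 100 counts. Neighbours this scarce in vehicle can pass the filter through chidamide alone, so that a rise is bound to appear. How many of the 36 did so was not determined.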
